A study of Mus musculus with 16 samples.

Results

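The cytochrome P450 monooxygenases of families 1 to 4 were followed in cells sorted from mouse olfactory mucosa. Members were all genes whose array symbol starts with Cyp, a family digit of 1 to 4, a subfamily letter and a number that ends the symbol. This took 72 genes of 19505 with a probe set, and each had a single probe set. Family 1 gave 3 members, family 2 gave 46, family 3 gave 7 and family 4 gave 16. Of the members, 71 were protein coding and 1, Cyp2d13, was listed as a transcribed pseudogene. A further 9 symbols of these families, such as Cyp2ab1 and Cyp4a12a, carry a second letter or a suffix and fell outside the rule.

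P450s are haem enzymes of the endoplasmic reticulum that insert an oxygen atom into a substrate with electrons passed on by P450 reductase. Families 1 to 3 mainly oxidise drugs, toxicants, odorants and steroids, and family 4 mainly hydroxylates fatty acids and eicosanoids. The olfactory mucosa is known for a high P450 content, carried mostly by sustentacular cells and Bowman glands and not by the olfactory neurons, and Cyp2g1 and Cyp2a5 are among its best known forms.

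RNA of fluorescence-sorted cells was measured on 16 Clariom S arrays. All mice were C57BL/6 animals of both sexes, 7 to 12 weeks old, and carried S100a5-tauGFP, a green fluorescent protein reporter of S100a5, a gene whose transcription in olfactory neurons depends on activity. Each mouse spent 40 h alone in a clean air chamber, and from 26 h on it received 10 s pulses every 20 min of the aldehyde odorant undecanal or of filtered air, the vehicle. The 4 groups, of 4 arrays each, were undecanal titled GFP+, vehicle titled GFP+, undecanal titled GFP- and vehicle titled GFP-, and each array held the cells of a pool of 3 mice. The sex of each pool is not given, and sorted cells can include any type of the dissociated tissue. The effect of undecanal was read within each fraction, and the sort fractions were compared within each agent.

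The sample titles and the characteristics fields give opposite GFP signs for all 16 arrays. The groups used here follow the titles, and each fraction is named by its title. S100a5, which drives the reporter, was lower in arrays titled GFP+ by limma's test: its log2 values ran from 15.62 to 15.96 in undecanal pools titled GFP+ against 16.45 to 17.06 in undecanal pools titled GFP-, and from 15.54 to 15.84 in vehicle pools titled GFP+ against 16.37 to 16.91 in vehicle pools titled GFP-. The log2 difference was -0.97 (adjusted p = 0.000394) in undecanal pools and -0.91 (adjusted p = 0.000715) in vehicle pools, so this gene goes against the titles. Omp, the marker of mature olfactory neurons, read 18.74 to 18.86 and 18.80 to 18.84 in undecanal and vehicle arrays titled GFP+, and 18.78 to 18.95 and 18.71 to 18.87 in undecanal and vehicle arrays titled GFP-. In pooled RNA of sorted cells, fewer cells of a type and less RNA per cell cannot be told apart. Arrays carry no read depth, and precision rests on 4 arrays a group.

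Values are log2 probe set summaries. A group mean below log2 4.80 was called below background, a level taken from probe sets of vomeronasal and bitter taste receptors. These were assumed to be little expressed in the main olfactory epithelium, and their absence from the sorted cells was not tested. By this measure 24 of the 72 P450s were above background in at least 1 group, which is 33.3%, against 64.8% of all tested probe sets. They were 1 of 3 members of family 1, 16 of 46 of family 2, 1 of 7 of family 3 and 6 of 16 of family 4. Counts per group were 19 in undecanal arrays titled GFP+, 19 in vehicle arrays titled GFP+, 22 in undecanal arrays titled GFP- and 22 in vehicle arrays titled GFP-. A background level from the negative control probes (log2 8.70) left 9, 10, 7 and 7 in the same order of groups, so all counts of detected members depend on the level chosen. By that level Cyp1a2 was above background only in vehicle arrays titled GFP+, with a mean of 8.75. Its other group means were 8.33 in undecanal arrays titled GFP+, and 6.18 and 6.04 in undecanal and vehicle arrays titled GFP-. Cyp2a4 was below that level in arrays titled GFP-, with means of 8.34 with undecanal and 8.20 with vehicle. With the receptor level, the 18 above background in all 4 groups were Cyp1a2, Cyp2a4, Cyp2a5, Cyp2c23, Cyp2d9, Cyp2d10, Cyp2d13, Cyp2f2, Cyp2g1, Cyp2j6, Cyp2j12, Cyp2s1, Cyp2u1, Cyp4b1, Cyp4f13, Cyp4f16, Cyp4f18 and Cyp4x1. Another 6 (Cyp2d40, Cyp3a44, Cyp4f37, Cyp2b10, Cyp2b23 and Cyp2d34) were above it in 1 to 3 groups. The other 48 were below background in every group, with group means from 2.10 to 4.74 and single arrays from 1.90 to 5.32, and their values bound a level without measuring it.

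The subfamilies differed in how many members were detected. Of the 14 Cyp2c genes, known as drug metabolising and arachidonic acid epoxygenase enzymes of liver, only Cyp2c23 passed the background level, and of the 7 Cyp3a genes, the main drug oxidising group of liver and gut, only Cyp3a44 did, in the 2 groups titled GFP-. None of the 5 Cyp4a genes, fatty acid hydroxylases induced through Ppara in liver, was above background in any group. In the other subfamilies 5 of 8 Cyp2d, 4 of 9 Cyp4f, 2 of 4 Cyp2a, 2 of 5 Cyp2b and 2 of 7 Cyp2j genes were. Cyp2e1, the ethanol oxidising P450 of liver, was below background in all groups, at 3.66, 3.57, 3.71 and 3.08 in pools 1 to 4 of undecanal arrays titled GFP+, and at 3.39, 2.95, 3.78 and 4.09 in vehicle arrays titled GFP+. In arrays titled GFP- it read 3.66, 3.93, 3.79 and 3.15 with undecanal, and 3.39, 4.11, 4.47 and 3.42 with vehicle.

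Cyp1a2, Cyp2a5, Cyp2f2, Cyp2g1 and Cyp2a4, P450s known from nasal tissue, were 3.20 to 6.57 times higher in arrays titled GFP+ than in arrays titled GFP- of the same agent. In each of the 5, the groups did not overlap and all 8 pools showed the direction. These 5 were picked for passing this test, so that separation adds no support, and its share among all probe sets was not counted. They are 5 of 12 members listed as known from nasal tissue, and the other 7 (Cyp2b10, Cyp2b19, Cyp2e1, Cyp2j6, Cyp2s1, Cyp3a13 and Cyp4b1) did not pass between fractions. Over all probe sets 8.83% in undecanal pools and 8.82% in vehicle pools were higher. The list was chosen with earlier results of these data known, so its count is not independent evidence, and its difference from these shares was not tested. Cyp2j12, of a fatty acid epoxygenase subfamily, was also higher with both agents, by 1.46 times in undecanal pools and 1.57 times in vehicle pools. Cyp4f18 passed the test only in undecanal pools, where it was 1.97 times higher, and 4 members were lower in arrays titled GFP+ of vehicle pools. No member passed the test for undecanal in either fraction.

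Tested across all probe sets with limma and Benjamini-Hochberg adjustment at 0.05, 7 of 72 members passed between fractions of undecanal pools, all higher in arrays titled GFP+. Among all probe sets 13.2% passed in that comparison, 8.83% higher and 4.36% lower. In vehicle pools 10 of 72 members passed, 6 higher and 4 lower, against 13.9% of all probe sets, 8.82% higher and 5.12% lower. The members' share of 13.9% in vehicle pools is that of all probe sets, and their 9.72% in undecanal pools is below the 13.2% there. Over all 72 members, most of them below background, the number that passed therefore does not set P450s apart. With probe sets below background in all groups left out, 24 members remained, and 7 passed in undecanal pools and 9 in vehicle pools. Of all probe sets kept, 19.6% passed in undecanal pools and 20.6% in vehicle pools. That filter admits a gene through the group where it is high, and the difference from these shares was not tested. The median log2 difference of the members was -0.12 in undecanal pools and -0.17 in vehicle pools, beside -0.11 over all probe sets in each. Their range was -0.57 to 2.23 in undecanal pools and -0.86 to 2.72 in vehicle pools, so a few members stood far above the rest.

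**Figure D1:**
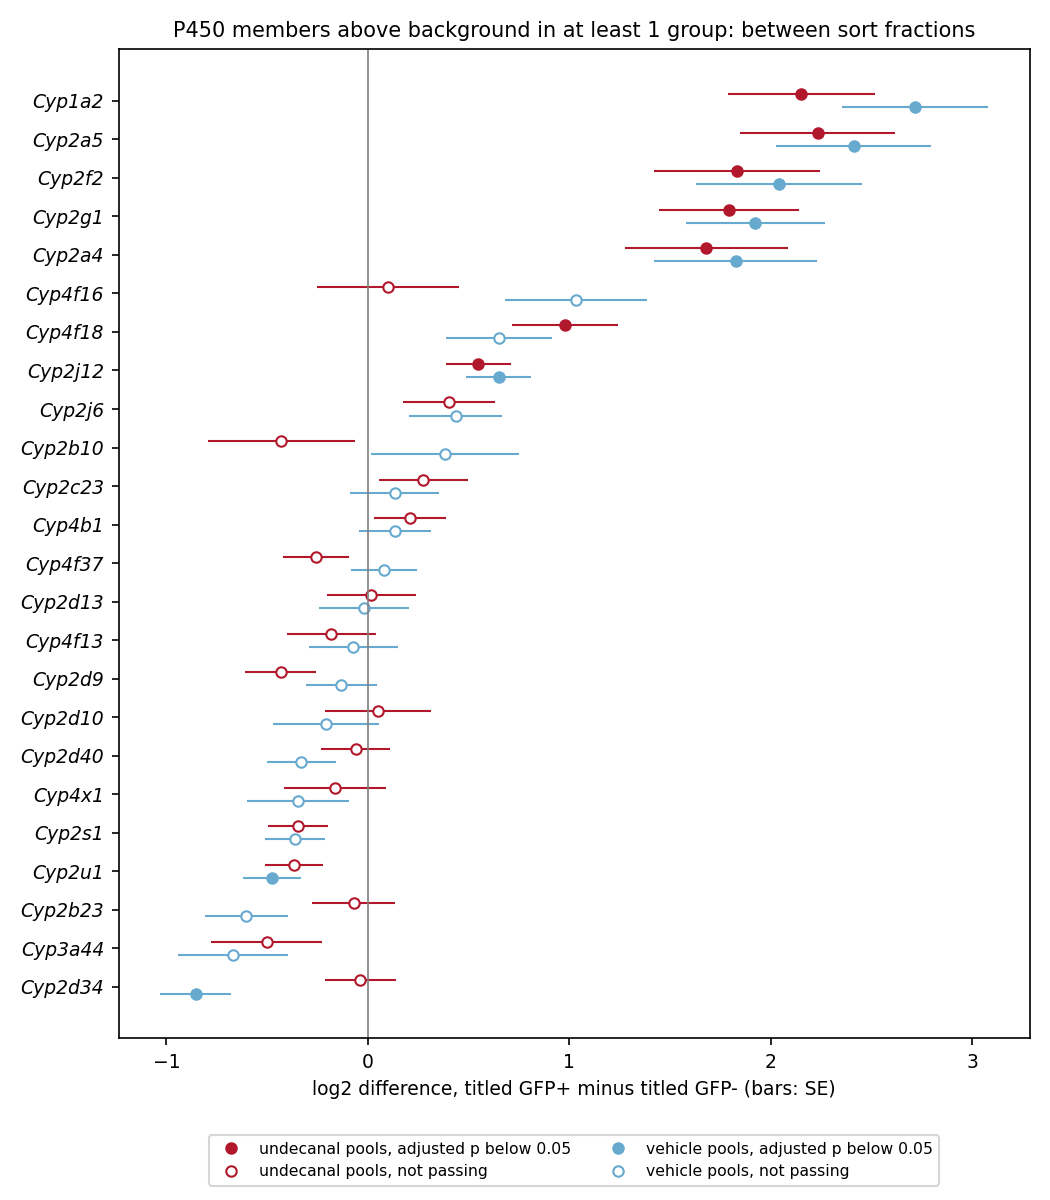
Log2 difference, titled GFP+ minus titled GFP-, with its standard error, for the 24 P450s above background in at least 1 group, in undecanal pools and in vehicle pools. Filled points passed the test at an adjusted p of 0.05; Cyp1a2, Cyp2a5, Cyp2f2, Cyp2g1 and Cyp2a4 lie between 1.68 and 2.72, and no other member lies above 1.03.

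The promoter windows of 5 of the 6 P450s higher with both agents are shown because an element related to the sequence TTGGC, bound by nuclear factor I proteins, is known from olfactory P450 promoters of the rat. Each window runs from 250 bases before to 50 bases after the gene start in RefSeq, build GRCm38.p6, and is written 5′ to 3′ on the gene's strand. They lie at chr9:57683606-57683905, minus strand, for Cyp1a2, at chr7:26835089-26835388, plus strand, for Cyp2a5 and at chr7:27119705-27120004, plus strand, for Cyp2f2. Those of Cyp2a4 and Cyp2j12 lie at chr7:26306942-26307241, plus strand, and at chr4:96141103-96141402, minus strand. Capitals mark matches to TATAAA, and to TTGGC or its reverse complement GCCAA.
Cyp1a2: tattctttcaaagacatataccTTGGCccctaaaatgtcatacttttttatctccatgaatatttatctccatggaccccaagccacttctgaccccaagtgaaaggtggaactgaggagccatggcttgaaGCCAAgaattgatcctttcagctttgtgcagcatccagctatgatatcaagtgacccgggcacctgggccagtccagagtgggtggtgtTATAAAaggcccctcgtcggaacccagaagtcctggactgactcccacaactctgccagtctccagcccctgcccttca
Cyp2a5: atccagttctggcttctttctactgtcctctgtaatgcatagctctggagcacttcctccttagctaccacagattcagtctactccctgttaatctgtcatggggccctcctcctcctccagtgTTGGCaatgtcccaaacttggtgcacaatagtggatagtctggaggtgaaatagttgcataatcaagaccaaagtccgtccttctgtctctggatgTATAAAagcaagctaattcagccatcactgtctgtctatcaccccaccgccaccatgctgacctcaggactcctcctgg
Cyp2f2: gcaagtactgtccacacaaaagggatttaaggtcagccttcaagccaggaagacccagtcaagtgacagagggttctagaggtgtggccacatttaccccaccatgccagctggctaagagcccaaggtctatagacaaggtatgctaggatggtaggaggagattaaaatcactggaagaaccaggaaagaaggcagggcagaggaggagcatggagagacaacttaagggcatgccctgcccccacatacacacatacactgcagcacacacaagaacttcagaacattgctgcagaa
Cyp2a4: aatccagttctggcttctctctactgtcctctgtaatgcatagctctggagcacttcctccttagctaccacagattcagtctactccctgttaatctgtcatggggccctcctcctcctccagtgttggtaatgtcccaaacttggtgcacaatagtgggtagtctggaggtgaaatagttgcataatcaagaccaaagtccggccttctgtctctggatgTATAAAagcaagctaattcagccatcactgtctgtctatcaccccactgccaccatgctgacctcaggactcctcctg
Cyp2j12: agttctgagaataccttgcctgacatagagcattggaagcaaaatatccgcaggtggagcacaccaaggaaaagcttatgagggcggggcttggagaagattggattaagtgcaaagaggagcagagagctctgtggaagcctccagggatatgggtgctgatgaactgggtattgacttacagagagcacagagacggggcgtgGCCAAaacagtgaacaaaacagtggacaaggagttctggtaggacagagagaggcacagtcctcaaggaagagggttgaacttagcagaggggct
A match to TATAAA on the gene's strand starts 29 bases before the gene start in Cyp1a2 and Cyp2a5 and 28 bases before it in Cyp2a4, and Cyp2f2 and Cyp2j12 have none. The 5-letter sequence TTGGC occurs in Cyp1a2 at 228 bases before the start and, on the other strand, at 118 bases before it. Cyp2a5 has it at 125 bases before the start and Cyp2j12, on the other strand, at 45 bases before it. GCGTG, the core of the element bound by the aryl hydrocarbon receptor, occurs only in Cyp2j12 of the 5, at 50 bases before the start, next to the GCCAA match. Searched on both strands of 32851 RefSeq windows of the same length, TATAAA was found in 13.6%, TTGGC in 46.7% and GCGTG in 32.4%. A match somewhere in a window is therefore not rare. These shares hold for any position and either strand, and matches at the positions and strands given here were not counted.

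The Cyp2a5 and Cyp2a4 windows are nearly the same sequence: of 299 aligned bases 294 were identical, which is 98.3%. The 5 differences, from Cyp2a5 to Cyp2a4 with positions counted from 1 at the 5′ end of the printed Cyp2a5 window, are T18C, C130T, A160G, T204G and C269T. C130T lies in the TTGGC match of Cyp2a5, and Cyp2a4 has no match to TTGGC. The genes are close paralogs, so probe sets of Cyp2a5 and Cyp2a4 may share signal and their separate values are uncertain.

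Cyp2g1 is a P450 found almost only in the olfactory mucosa. In pools 1 to 4 it read 15.98, 14.97, 15.07 and 15.09 in undecanal arrays titled GFP+, and 14.03, 13.12, 13.55 and 13.23 in undecanal arrays titled GFP-. Vehicle pools gave 15.63, 14.83, 15.23 and 15.59 in arrays titled GFP+, and 13.99, 12.13, 13.75 and 13.72 in arrays titled GFP-. Every array titled GFP+ lay above every array titled GFP-, and vehicle pool 2 was the lowest of its group in both fractions. The mean log2 difference was 1.79 (SE 0.347, adjusted p = 0.00118) in undecanal pools, a fold of 3.46, and 1.92 (SE 0.347, adjusted p = 0.000599) in vehicle pools, a fold of 3.79.

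Cyp2a5 hydroxylates coumarin and nicotine and corresponds to human CYP2A6. Its values were 15.11, 14.15, 14.04 and 14.42 in undecanal arrays titled GFP+, and 12.65, 11.38, 12.41 and 12.36 in undecanal arrays titled GFP-. In vehicle pools they were 14.80, 13.74, 14.25 and 15.13 in arrays titled GFP+, and 12.35, 10.88, 12.33 and 12.71 in arrays titled GFP-. The fractions did not overlap with either agent. Cyp2a5 was higher by 2.23 (SE 0.385, adjusted p = 0.000386) in undecanal pools, a fold of 4.70, and by 2.41 (SE 0.385, adjusted p = 0.000176) in vehicle pools, a fold of 5.32. Cyp2a4, a steroid hydroxylase, read 11.13, 9.36, 9.53 and 10.05 in undecanal arrays titled GFP+, and 8.77, 8.14, 8.24 and 8.19 in undecanal arrays titled GFP-. Vehicle arrays gave 10.44, 9.42, 9.66 and 10.59 for Cyp2a4 when titled GFP+, and 8.95, 7.09, 8.06 and 8.70 when titled GFP-. The lowest array titled GFP+ of each agent stood above the highest titled GFP-. The log2 difference of Cyp2a4 was 1.68 (adjusted p = 0.00745) in undecanal pools and 1.82 (adjusted p = 0.00384) in vehicle pools.

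Cyp2f2, which turns naphthalene into its toxic epoxide in the airway, read 13.26, 12.65, 12.69 and 12.62 in undecanal arrays titled GFP+, and 11.58, 10.28, 11.15 and 10.89 in undecanal arrays titled GFP-. With vehicle, Cyp2f2 read 13.12, 12.06, 12.78 and 13.56 in arrays titled GFP+, and 11.19, 9.41, 10.97 and 11.80 in arrays titled GFP-. Its fractions were separate with both agents, and vehicle pool 2 was again lowest in each fraction. The log2 difference of Cyp2f2 was 1.83 (SE 0.412, adjusted p = 0.00444) in undecanal pools and 2.04 (SE 0.412, adjusted p = 0.00175) in vehicle pools, folds of 3.56 and 4.11.

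Cyp1a2 oxidises aromatic amines and is a target of the aryl hydrocarbon receptor in liver. It read 8.64, 8.28, 8.44 and 7.97 in undecanal arrays titled GFP+, and 6.32, 6.39, 6.27 and 5.76 in undecanal arrays titled GFP-. Vehicle arrays gave 8.89, 7.78, 8.75 and 9.58 for Cyp1a2 when titled GFP+, and 6.01, 4.90, 6.40 and 6.83 when titled GFP-. No array titled GFP- reached the values of those titled GFP+. Cyp1a2 was higher by 2.15 (SE 0.364, adjusted p = 0.000317) in undecanal pools and by 2.72 (SE 0.364, adjusted p = 2.51e-05) in vehicle pools, folds of 4.44 and 6.57. The other classical targets of that receptor, Cyp1a1 and Cyp1b1, were below background in every group. Cyp1a1 ranged over the 16 arrays from 2.56 to 3.57 and Cyp1b1 from 2.72 to 3.96.

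Cyp2j12 read 12.68, 12.05, 12.14 and 12.40 in undecanal arrays titled GFP+, and 12.08, 11.57, 11.87 and 11.55 in undecanal arrays titled GFP-. Its vehicle values were 12.48, 12.24, 12.46 and 12.56 in arrays titled GFP+, and 11.91, 11.70, 11.86 and 11.68 in arrays titled GFP-. The fractions overlapped in undecanal pools and not in vehicle pools, and all 8 pools had the higher value in the array titled GFP+. The log2 difference was 0.55 (SE 0.162, adjusted p = 0.0300) in undecanal pools and 0.65 (SE 0.162, adjusted p = 0.00937) in vehicle pools. This call did not hold when arrays were centred on the median of all probe sets (adjusted p = 0.284 in undecanal pools and 0.110 in vehicle pools). It was also lost in undecanal pools without undecanal pool 2 (adjusted p = 0.0639), without undecanal pool 4 (0.161) or when the fit held only the groups compared (0.0942), and in vehicle pools without vehicle pool 4 (0.0741).

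Cyp4f18, a leukotriene hydroxylase known from mouse neutrophils, was named after its values were seen, because it passed the test only between fractions of undecanal pools. It read 7.16, 7.63, 7.71 and 6.16 in undecanal arrays titled GFP+, and 6.15, 5.70, 6.63 and 6.27 in undecanal arrays titled GFP-. In vehicle pools Cyp4f18 read 6.87, 6.75, 6.95 and 6.81 in arrays titled GFP+, and 6.19, 6.26, 6.22 and 6.12 in arrays titled GFP-. The undecanal fractions overlapped, with pool 4 going the other way, while the vehicle fractions were separate and far less spread. The log2 difference was 0.98 (SE 0.262, adjusted p = 0.0166) in undecanal pools and 0.65 (SE 0.262, adjusted p = 0.120) in vehicle pools, and the interaction between agent and fraction was 0.33 (SE 0.371), which did not pass. The undecanal call was lost without undecanal pool 1 (adjusted p = 0.0781) or pool 2 (0.185), with quantile normalization (0.0915) or when the fit held only the groups compared (0.0853). The vehicle difference passed without undecanal pool 4 (adjusted p = 0.0235), with only the groups compared (0.00617) or with centring on mature neuron genes (0.0430). All 10 neutrophil genes listed were higher in arrays titled GFP+ with both agents, by a median of 8.85 in undecanal pools and 8.83 in vehicle pools, and their part in the Cyp4f18 values was not tested.

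**Figure D2:**
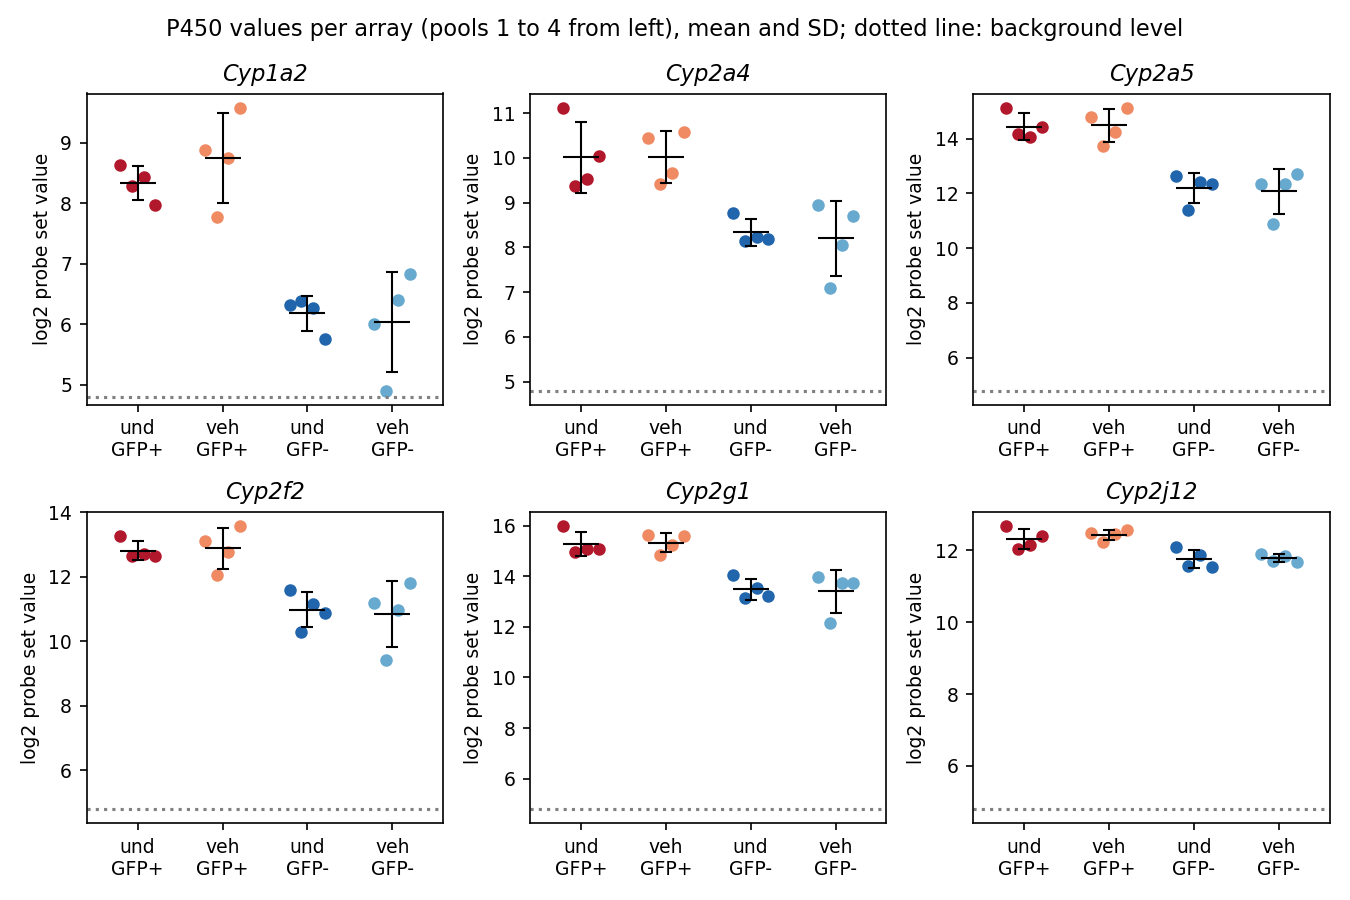
Log2 probe set values of Cyp1a2, Cyp2a5, Cyp2f2, Cyp2g1, Cyp2a4 and Cyp2j12 in each of the 16 arrays, by group (und, undecanal; veh, vehicle; GFP sign as titled), with the mean and SD of each group and the background level as a dotted line. In the first 5 every array titled GFP+ lies above every array titled GFP-, while undecanal and vehicle arrays of a fraction lie over each other.

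Among the members lower in arrays titled GFP+, Cyp2d34 read 4.08, 3.93, 4.21 and 4.48 in vehicle arrays titled GFP+, and 4.72, 5.52, 4.82 and 5.06 in vehicle arrays titled GFP-. In undecanal pools Cyp2d34 read 4.68, 4.49, 4.64 and 4.83 in arrays titled GFP+, and 4.57, 4.52, 4.80 and 4.91 in arrays titled GFP-. Only the vehicle arrays titled GFP- averaged above background, the vehicle fractions did not overlap, and the undecanal fractions did. The log2 difference was -0.04 in undecanal pools and -0.86 (SE 0.176, adjusted p = 0.00212) in vehicle pools. Cyp2d genes are close paralogs, so this probe set may share signal with its relatives.

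Cyp2u1, a long-chain fatty acid hydroxylase, was lower in vehicle pools by limma's test, at 10.45, 10.68, 10.91 and 10.47 in arrays titled GFP+, and 11.14, 10.85, 11.18 and 11.24 in arrays titled GFP-. Its undecanal values were 10.78, 10.53, 10.71 and 10.76 in arrays titled GFP+, and 10.98, 11.28, 10.92 and 11.05 in arrays titled GFP-. The array titled GFP+ of vehicle pool 3 stood above the array titled GFP- of vehicle pool 2, so the vehicle groups overlapped, although each pool had the lower value in its array titled GFP+. The difference was -0.37 (adjusted p = 0.117) in undecanal pools and -0.47 (SE 0.144, adjusted p = 0.0340) in vehicle pools. With the pool as a fixed block the adjusted p in vehicle pools was 0.0619, and with the replicate number as a block it was 0.0512. The call was also lost with centring on mature neuron genes (0.294), with only the groups compared (0.0882), and without undecanal pool 3 (0.0501), vehicle pool 1 (0.184) or vehicle pool 4 (0.195).

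Cyp2c38 and Cyp4a29 passed as lower in vehicle pools although all 4 of their group means were below background. Cyp2c38 ranged from 2.69 to 3.08 in vehicle arrays titled GFP+ against 3.28 to 4.02 in vehicle arrays titled GFP-, a difference of -0.69 (adjusted p = 0.0133). Cyp4a29 ranged from 2.60 to 2.81 in vehicle arrays titled GFP+ against 3.03 to 3.22 in vehicle arrays titled GFP-, a difference of -0.47 (adjusted p = 0.0328), or 0.0546 with the pool as a fixed block. The Cyp2c38 call was lost without vehicle pool 2 (adjusted p = 0.0681) or 3 (0.0825) and with centring on mature neuron genes (0.0969). That of Cyp4a29 was lost without any 1 of the 4 vehicle pools (0.0730 to 0.152), without undecanal pool 2 (0.0531), with quantile normalization (0.0850) and with centring on mature neuron genes (0.255).

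A further 15 members above background passed in neither agent, with log2 differences from -0.50 to 0.40 in undecanal pools and from -0.67 to 1.03 in vehicle pools. Cyp4f16 and Cyp2b23 were named after their values were seen, since at least 1 block on pool or number brought them past the threshold in vehicle pools. Cyp4f16, of the fatty acid and eicosanoid hydroxylase group, averaged 6.22 and 6.12 in undecanal arrays titled GFP+ and GFP-, and 6.94 and 5.90 in vehicle arrays titled GFP+ and GFP-. The vehicle difference of 1.03 had an adjusted p of 0.0627, and of 0.0386 with the pool as a correlated block, 0.0676 with it as a fixed block and 0.0698 with the number as a block. By limma's test it passed in 4 of 19 alternatives. The others were centring on mature neuron genes (adjusted p = 0.0185), only the groups compared (0.0331) and leaving out undecanal pool 3 (0.0323). Cyp2b23 averaged 4.67 and 4.74 in undecanal arrays titled GFP+ and GFP-, and 4.58 and 5.18 in vehicle arrays titled GFP+ and GFP-. Its vehicle difference of -0.60 had an adjusted p of 0.0643, and of 0.0292 to 0.0340 with the 3 blocks. Cyp2b23 passed limma's test in 7 of 19 alternatives. Besides the blocks, these were leaving out dim probe sets (adjusted p = 0.0480), median centring (0.00151), quantile normalization (0.0195) and leaving out vehicle pool 4 (0.0178).

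Several members known from nasal or other epithelia did not pass between fractions. Cyp2j6, a fatty acid epoxygenase, ranged from 7.54 to 8.39 and from 7.27 to 7.61 in undecanal arrays titled GFP+ and GFP-, and from 7.48 to 8.05 and from 6.75 to 7.89 in vehicle arrays titled GFP+ and GFP-. Cyp4b1, a lung P450 that activates furan toxicants, ranged from 5.18 to 5.57 and from 5.01 to 5.54 in undecanal arrays titled GFP+ and GFP-, and from 4.78 to 5.52 and from 4.81 to 5.31 in vehicle arrays titled GFP+ and GFP-. Their fractions overlapped with both agents. Cyp2b10, the classical target of the receptor Nr1i3 in liver, ranged from 4.15 to 5.06 and from 4.40 to 5.61 in undecanal arrays titled GFP+ and GFP-, and from 3.84 to 5.61 and from 3.69 to 4.80 in vehicle arrays titled GFP+ and GFP-. Cyp2b19, known from skin keratinocytes, was below background in all groups, with arrays from 3.08 to 3.90.

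Of the 6 members higher with both agents, 4 lie on chromosome 7. It holds 15 members, 13 of them in a single cluster whose order in RefSeq is Cyp2s1, Cyp2b10, Cyp2b13, Cyp2b9, Cyp2a4, Cyp2b23, Cyp2b19, Cyp2g1, Cyp2a5, Cyp2a22, Cyp2a12, Cyp2f2 and Cyp2t4. Of these 13, 7 were above background, 4 were higher in arrays titled GFP+ with both agents and 0 were lower. Over all probe sets 64.8% were above background, and 8.83% in undecanal pools and 8.82% in vehicle pools were higher; the difference of the cluster from these shares was not tested. The 4 that were higher (Cyp2a4, Cyp2g1, Cyp2a5 and Cyp2f2) are interspersed with Cyp2b and Cyp2a genes that did not pass. Of the other such members, Cyp1a2 lies on chromosome 9 and Cyp2j12 on chromosome 4. None of the 14 Cyp2c genes on chromosome 19 and none of the 8 members on chromosome 5 was higher with either agent. Only 1 of those 14 and 1 of those 8 were above background, so these counts say little.

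**Figure D3:**
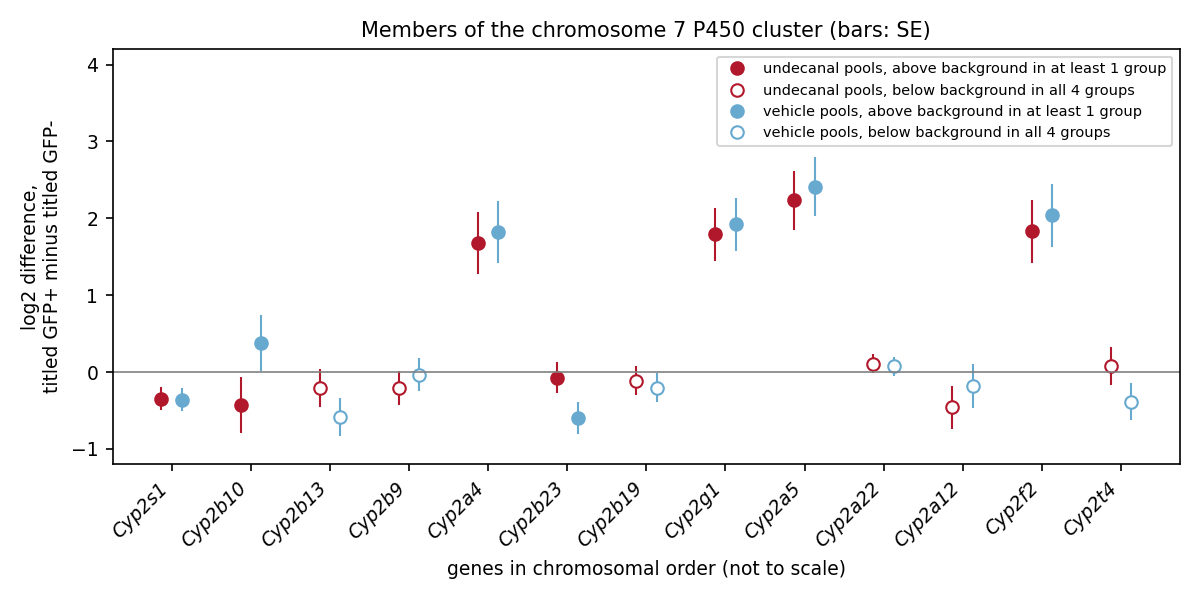
Log2 difference, titled GFP+ minus titled GFP-, of the 13 P450 genes of the chromosome 7 cluster in their order along the chromosome, in undecanal and vehicle pools, with standard errors. Cyp2a4, Cyp2g1, Cyp2a5 and Cyp2f2 lie at 1.68 to 2.41, filled points are genes above background in at least 1 group, and the other genes of the cluster lie at 0.38 or below.

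For undecanal against vehicle, 0 of 72 members passed in arrays titled GFP+, where 0.0045% of all probe sets did (limma, Benjamini-Hochberg). At an unadjusted p under 0.05 there were 4 members, 3 higher and 1 lower, which is 5.56% against 2.72% of all probe sets. In arrays titled GFP- 0 members passed, against 0% of all probe sets, and 6 had an unadjusted p under 0.05, 2 higher and 4 lower, which is 8.33% against 4.12%. No difference between these shares was tested, and the lowest adjusted p among the members was 0.999 in arrays titled GFP+ and 1.00 in arrays titled GFP-. The median undecanal difference of the members was 0.02 in arrays titled GFP+ and 0.07 in arrays titled GFP-, with 38 and 43 of 72 members above 0.

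None of the 5 P450s that passed between fractions with the larger folds passed for undecanal against vehicle, with adjusted p of at least 0.999 in limma's test throughout. Cyp2g1 averaged 15.27 ± 0.472 in undecanal and 15.32 ± 0.374 in vehicle arrays titled GFP+ (SD, n = 4 each), a difference of -0.05 with a 95% interval from -0.78 to 0.69. For Cyp2a5 the means were 14.43 ± 0.483 in undecanal and 14.48 ± 0.612 in vehicle arrays titled GFP+ (SD, n = 4 each), with an interval from -0.86 to 0.77. Cyp2f2 averaged 12.81 ± 0.306 in undecanal and 12.88 ± 0.632 in vehicle arrays titled GFP+, and its interval ran from -0.94 to 0.79. The undecanal and vehicle arrays of these genes overlapped. Cyp2a4 averaged 10.02 ± 0.796 in undecanal and 10.03 ± 0.576 in vehicle arrays titled GFP+, with an interval from -0.86 to 0.84. Cyp1a2 had the largest difference of the 5, with 8.33 ± 0.282 in undecanal and 8.75 ± 0.742 in vehicle arrays titled GFP+, -0.42 with an interval from -1.18 to 0.35. In arrays titled GFP- the 5 differences lay between 0.08 and 0.15, and their intervals together spanned -0.73 to 1.00. Changes in either direction that lie within the interval of a gene and fraction remain possible with 4 pools a group. The intervals are not adjusted for the number of probe sets tested and set no limit of detection.

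**Figure D4:**
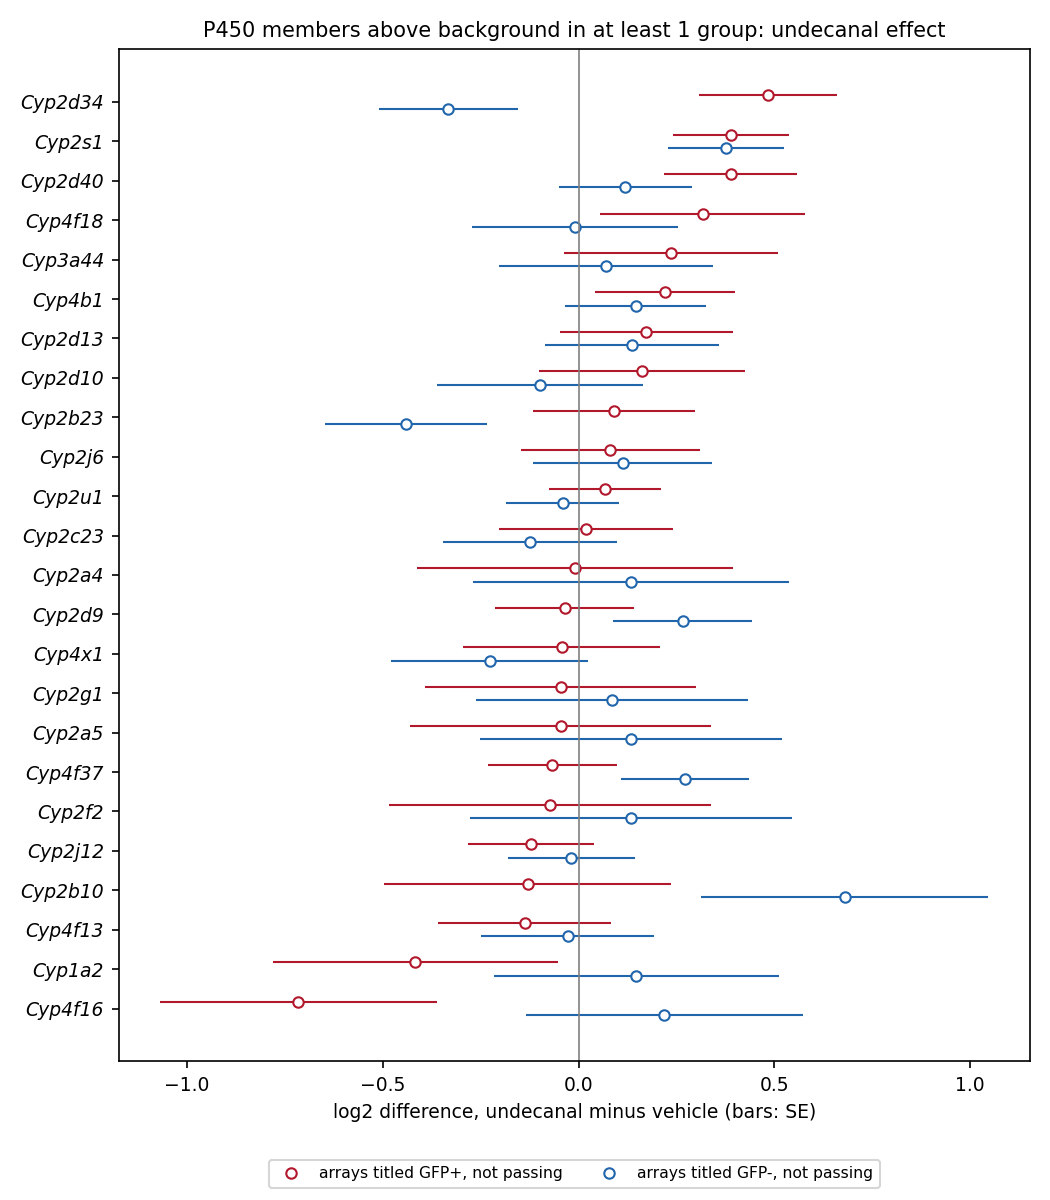
Log2 difference, undecanal minus vehicle, with its standard error, for the 24 P450s above background in at least 1 group, in arrays titled GFP+ and in arrays titled GFP-. No point passed the test; values run from -0.72 for Cyp4f16 in arrays titled GFP+ to 0.68 for Cyp2b10 in arrays titled GFP-.

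Cyp2s1, an epithelial P450 that metabolises retinoic acid, was among the members with the 3 smallest p in both fractions. It read 12.20, 12.71, 12.46 and 12.50 in undecanal and 11.88, 12.29, 11.86 and 12.28 in vehicle arrays titled GFP+. In arrays titled GFP- Cyp2s1 read 12.80, 12.94, 12.90 and 12.62 with undecanal, and 12.56, 12.43, 12.42 and 12.34 with vehicle. Undecanal and vehicle arrays overlapped in arrays titled GFP+ and not in arrays titled GFP-. The difference was 0.39 (unadjusted p = 0.0181, adjusted p = 0.999, 95% interval 0.08 to 0.70) in arrays titled GFP+ and 0.38 (unadjusted p = 0.0216, adjusted p = 1.00, interval 0.06 to 0.69) in arrays titled GFP-, and neither passed limma's test across all probe sets. Between fractions Cyp2s1 differed by -0.35 (adjusted p = 0.155) in undecanal pools and -0.36 (adjusted p = 0.129) in vehicle pools.

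Of the other members with the smallest unadjusted p in the undecanal comparisons, Cyp2d34 was described above and most others were below background. Cyp2d34 differed by 0.48 in arrays titled GFP+ (unadjusted p = 0.0136, adjusted p = 0.999 with limma). Both group means there, 4.66 with undecanal and 4.18 with vehicle, were below background. The groups barely failed to overlap, with the lowest undecanal array at 4.49 and the highest vehicle array at 4.48. Cyp4f14, below background in all groups, read 3.20, 2.87, 2.96 and 3.11 in undecanal and 3.08, 3.59, 3.62 and 3.57 in vehicle arrays titled GFP+, a difference of -0.43 (unadjusted p = 0.0192). Cyp3a13, an extrahepatic member of the Cyp3a group and likewise below background, read 3.94, 4.06, 3.54 and 3.90 in undecanal and 4.26, 5.24, 4.45 and 4.66 in vehicle arrays titled GFP-. Its difference of -0.79 (unadjusted p = 0.0121, adjusted p = 1.00 with limma) came with no overlap of the groups. Cyp4f15, below background in all groups, read 5.32, 3.76, 4.10 and 4.02 in undecanal and 3.73, 3.27, 3.50 and 3.94 in vehicle arrays titled GFP-, a difference of 0.69 (unadjusted p = 0.0255) in which pool 1 stood highest.

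Whether the undecanal effect differed between fractions was tested as an interaction, and 0 of 72 members passed, against 0% of all probe sets. At an unadjusted p under 0.05 there were 2 members, or 2.78%, against 2.63% of all probe sets, so the members' share is near that of all. These were Cyp2d34 with 0.82 (SE 0.250, unadjusted p = 0.00442, adjusted p = 1.00 with limma) and Cyp2c55, below background in all groups, with 0.93 (SE 0.403, unadjusted p = 0.0340). Cyp4f15 had the third smallest p, with an interaction of -0.79 (unadjusted p = 0.0648). For Cyp1a2 the interaction was -0.56 with an interval from -1.65 to 0.52.

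Some pools held the extremes of Cyp1a2, Cyp2a4, Cyp2a5, Cyp2f2 and Cyp2g1 and others did not. Vehicle pool 2 was the lowest of its group for 5 of 5 in arrays titled GFP+ and for 5 of 5 in arrays titled GFP-. Undecanal pool 1 was the highest of its group for 5 of 5 in arrays titled GFP+ and for 4 of 5 in arrays titled GFP-. The lowest undecanal array titled GFP+ was spread over pools 2, 3 and 4 (2, 1 and 2 of the 5 genes), and pool 2 was the lowest undecanal array titled GFP- for 4 of 5. The highest vehicle array was in pool 4 for 4 of 5 genes titled GFP+ and for 3 of 5 titled GFP-, and in pool 1 for the others. The sustentacular cell enzymes Cbr2 and Sult1c1 were also lowest in vehicle pool 2 and highest in undecanal pool 1 in both fractions. The extreme pools of the other listed sustentacular genes, of the other cell type lists and of all probe sets were not examined. Taking the difference within each pool, Cyp2g1 was higher in the array titled GFP+ by 1.94, 1.84, 1.52 and 1.86 in undecanal pools 1 to 4 and by 1.65, 2.70, 1.48 and 1.87 in vehicle pools 1 to 4. For Cyp1a2 the within-pool differences were 2.32, 1.90, 2.17 and 2.22 in undecanal pools and 2.88, 2.88, 2.35 and 2.76 in vehicle pools. Without vehicle pool 2 the vehicle difference of the 5 genes lay between 1.66 and 2.66 and each passed limma's test, with adjusted p up to 0.0103.

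**Figure D5:**
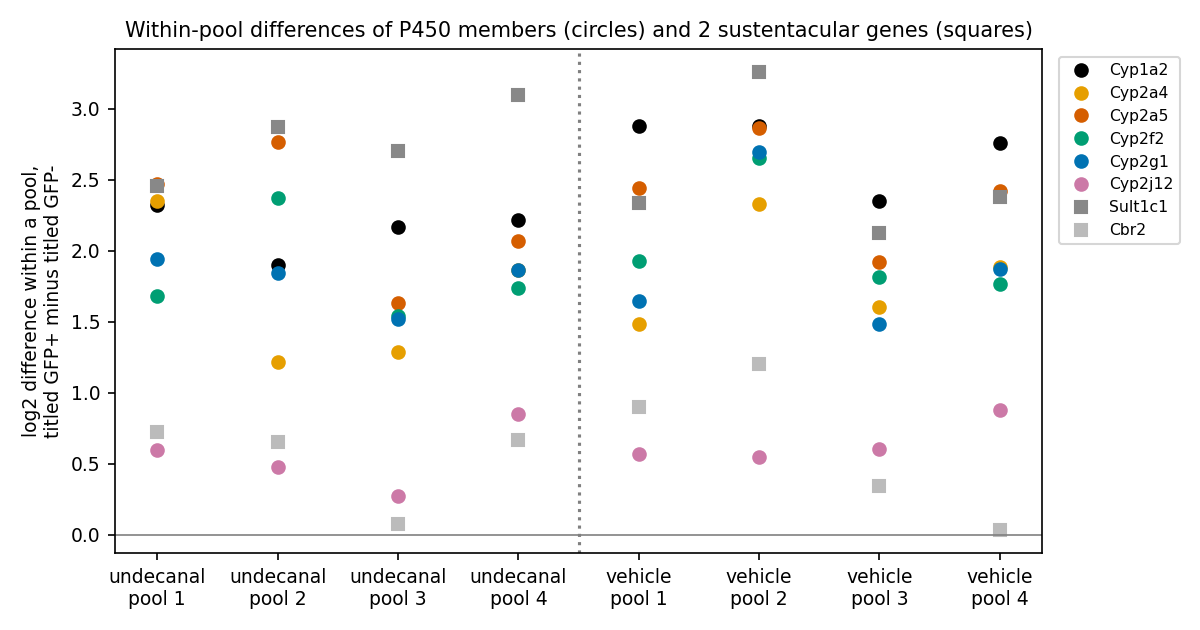
Within-pool log2 difference, titled GFP+ minus titled GFP-, for the 6 P450s higher with both agents (circles) and the sustentacular genes Sult1c1 and Cbr2 (squares), in each of the 4 undecanal and 4 vehicle pools. All points of the P450s lie above 0, from 0.27 for Cyp2j12 to 2.88 for Cyp1a2.

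Markers of the cells known to carry nasal P450s were followed beside them. Of 10 sustentacular genes measured, 4 were higher in arrays titled GFP+ and 0 lower with each agent, with a median of 0.65 in undecanal pools and 0.59 in vehicle pools. Over all probe sets 8.83% in undecanal pools and 8.82% in vehicle pools were higher. The difference of this list and of the Bowman gland list from these shares was not tested. Krt18 and Krt8, keratins shared by many epithelia, were higher by 4.07 and 2.96 in undecanal pools and by 3.62 and 2.83 in vehicle pools, and the sulfotransferase Sult1c1 by 2.78 and 2.52 (limma, adjusted p up to 3.43e-05). Cbr2, a carbonyl reductase, differed by 0.53 in undecanal pools and 0.62 in vehicle pools and Ermn, a cytoskeletal protein, by 0.76 and 0.57, and neither passed. The log2 of the list's summed level ran from 13.34 to 14.56 in undecanal and 13.27 to 14.03 in vehicle arrays titled GFP+, and from 12.27 to 13.53 in undecanal and 11.72 to 13.62 in vehicle arrays titled GFP-. Hes1 was the sole listed sustentacular gene below background in all groups. Of 9 Bowman gland genes 3 were higher and 0 lower with each agent (Sox9, Aqp5 and Reg3g), with medians of 0.25 in undecanal and 0.21 in vehicle pools. Their log2 summed level ran from 9.47 to 12.01 in undecanal and 9.85 to 13.37 in vehicle arrays titled GFP+, and from 8.21 to 11.33 in undecanal and 9.06 to 12.18 in vehicle arrays titled GFP-, and Muc5b, Muc5ac and Obp1a were below background. Some listed genes are also expressed by other epithelial cells, and the part of these cells in the P450 values was not tested.

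Markers of other cell types also moved between fractions, and their part was not tested. All 10 neutrophil, all 9 monocyte and macrophage and all 8 microvillar cell genes were higher in arrays titled GFP+ with both agents. The log2 summed neutrophil level ran from 18.00 to 18.64 in undecanal and 18.00 to 18.75 in vehicle arrays titled GFP+, against 7.77 to 8.46 in undecanal and 7.91 to 8.70 in vehicle arrays titled GFP-. Higher with undecanal and with vehicle were 6 and 8 of 10 immature neuron genes, 4 and 3 of 8 basal cell genes, 6 and 5 of 9 lymphocyte genes, 3 and 3 of 4 erythroid genes and 3 and 2 of 10 vascular and stromal genes, of which 1 was lower with vehicle. Over all probe sets 8.83% in undecanal pools and 8.82% in vehicle pools were higher. The basal cell genes Krt5, Krt14, Trp63, Krt15 and Neurog1 were below background in all groups. So were Cdh5, Kdr, Tek and Col1a2 of the vascular and stromal list, and Chat, Cd3g and Klf1 of the microvillar, lymphocyte and erythroid lists. None of 7 glial genes passed, 2 and 1 of 7 ciliated cell genes were lower, and 1 of 12 mature neuron genes (Ano2) was lower with both agents. No listed gene passed in a comparison of undecanal with vehicle or in the interaction.

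The partners and regulators of P450s and other oxidising enzymes had few calls between fractions, at most 1 per list and agent, where 13.2% of all probe sets passed in undecanal pools and 13.9% in vehicle pools, so these counts say little about the lists. Of 11 electron transfer and haem genes measured, 1 passed with each agent: Blvrb, a flavin and biliverdin reductase, was higher by 1.47 (adjusted p = 0.000856) in undecanal pools and by 1.11 (adjusted p = 0.00907) in vehicle pools by limma's test. The list's median was -0.01 in undecanal pools and 0.05 in vehicle pools, beside -0.11 over all probe sets in each. Alas1, the first enzyme of haem synthesis, differed by 0.32 in undecanal pools and by 0.73 (adjusted p = 0.0583) in vehicle pools. Of 12 regulators, Rxra, the partner of several nuclear receptors, was lower in undecanal pools (-0.55, adjusted p = 0.0230), none passed in vehicle pools, and the medians were -0.05 and -0.27. Ahr, the receptor that induces family 1 P450s, differed by -0.35 in undecanal pools and -0.28 in vehicle pools without passing. Nr1i3, Ppara, Nr1h4 and Hnf4a, liver regulators of families 2 to 4, were below background in all groups. Of 13 other oxidising enzymes, Fmo1, a flavin monooxygenase, was higher in undecanal pools (0.85, adjusted p = 0.0161), none passed in vehicle pools, and the medians were -0.02 and -0.07.

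The split of calls between fractions depended on how arrays were scaled. Centring each array on the median of all probe sets gave 6 members higher and 31 lower in undecanal pools and 5 higher and 32 lower in vehicle pools, where the median of all probe sets moved to -0.46 and -0.47 and 57.3% and 57.6% of all probe sets passed. Quantile normalization gave 6 higher and 1 lower in undecanal pools, and 6 higher and 4 lower in vehicle pools. Centring on mature neuron genes gave 7 higher and 0 lower in undecanal pools, and 8 higher and 1 lower in vehicle pools. The higher values of Cyp1a2, Cyp2a4, Cyp2a5, Cyp2f2 and Cyp2g1 passed under each of these scalings with both agents.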

How the data were processed

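RNA of sorted cells was measured on 16 one-colour Clariom S arrays. The deposited values are log2 summaries per probe set, and the submitters' processing notes name Affymetrix Expression Console as the tool the authors used. Which summary algorithm and version was run, and the build behind the annotation, is not given in the sources used here. Control rows (6640 of 28846) were removed, and the fit ran on the other 22206 probe sets with no further normalization and no filter on dim values. Genes were named from the platform annotation, and all 72 P450s matched RefSeq (GRCm38.p6) by gene identifier with 0 changed symbols.

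Groups followed the titles. A linear model of 4 group means over all 16 arrays was fitted with limma 3.58.1 (lmFit and eBayes, R 4.3.3) without a block, and Benjamini-Hochberg adjustment ran over all 22206 probe sets, with a threshold of 0.05. The procedure was tested on simulated arrays with independent noise. They had no shared pools, so this test does not cover the correlation within pools. For the background level, the 95th percentile was taken over the group means of 358 vomeronasal and bitter receptor probe sets. By the labels, 24 mice were pooled by 3, which gives 8 pools for 16 arrays, and arrays with the same number and agent were read as both fractions of a pool. Deviations from group means correlated within pools with r from 0.050 to 0.271 (over 0.1 in 6 of 8), and between agents with the same number from -0.042 to 0.291.

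Per-array values are given for the 3 members with the smallest p in each undecanal comparison and the interaction, up to 12 per direction passing between fractions of vehicle pools, and listed nasal and aryl hydrocarbon receptor target genes, some by range. The members, gene lists and tests were chosen with earlier results of these data known. Alternatives were other scalings, blocks, weights, filters, background levels and leaving out each pool. Figures were drawn with matplotlib 3.10.9.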

Additional observations from a re-analysis of the deposited data

Results flagged for a closer look

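Dixon's ratio of gap to range was taken in 92 groups of 4 arrays, those of the P450s named with their values. Chance puts about 1 in 20 such groups past the critical ratio. The groups are not independent, since several genes had the same extreme pools. In 6 of the 92, near the share given by chance, a single pool stood apart from the other 3 by more than the critical ratio. Undecanal pool 1 was high in 3 of them: Cyp2f2 in arrays titled GFP+ at 13.26, with the others at 12.62 to 12.69, Cyp2g1 in arrays titled GFP+ at 15.98, with the others at 14.97 to 15.09, and Cyp2a4 in arrays titled GFP- at 8.77, with the others at 8.14 to 8.24. Vehicle pool 2 was low for Cyp2g1 in arrays titled GFP-, at 12.13 with the others at 13.72 to 13.99. Among members below background, vehicle pool 1 was low for Cyp4f14 in arrays titled GFP+, at 3.08 with the others at 3.57 to 3.62. Vehicle pool 3 was high for Cyp2b19 in arrays titled GFP+, at 3.89 with the others at 3.24 to 3.31.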

How the results depend on the processing

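Counts of members that passed changed by more than 1.5 times only with median centring, which gave 37 in undecanal pools and 37 in vehicle pools in place of 7 and 10. A background level from the negative control probes (log2 8.70) left 9, 10, 7 and 7 members above it in undecanal titled GFP+, vehicle titled GFP+, undecanal titled GFP- and vehicle titled GFP- arrays. With the pool as a correlated block 7 and 12 members passed in undecanal and vehicle pools, with it as a fixed block 7 and 9, and with the replicate number as a block 7 and 10. The block moved the calls of Cyp2u1, Cyp4a29, Cyp2b23 and Cyp4f16 given above and no other P450 call. Leaving out a pool gave 5 to 7 members in undecanal pools and 8 to 11 in vehicle pools, and 0 in each undecanal comparison and the interaction. Among the P450s named with their values, 28 calls were lost over the settings, 17 gained and 0 reversed, not counting other members gained with median centring; Cyp1a2, Cyp2a4, Cyp2a5, Cyp2f2 and Cyp2g1 lost none between fractions, nor did Cyp2d34 in vehicle pools. Taking another probe set of a gene was not run, since each member has 1. Dim members give bounds only, and signal below background limits what could be seen of 48 of them.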
